A study of Mus musculus with 16 samples.

Results

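The genes described here are 10 immediate-early genes: Fos, Fosb, Junb, Egr1, Egr2, Egr3, Nr4a1, Nr4a3, Btg2 and Arc. They are 10 of the 19505 genes named on the array, and 12 probe sets carry their symbols. A gene with several probe sets is represented by the one with the highest mean, which concerns Egr3 alone. The list was drawn up as transcription factors, but Btg2 is an antiproliferative co-regulator that does not bind DNA itself, and Arc is a synaptic protein of the cytoskeleton and of endocytosis.

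RNA came from olfactory mucosa of S100a5-tauGFP mice on C57BL/6, a line whose GFP reporter follows S100a5, a calcium-binding protein gene of olfactory sensory neurons. According to the labels, 24 mice of both sexes, 7 to 12 weeks old, were kept for 40 h in chambers with clean air at 3.1 L per min, and from 26 h on they received a pulse of 10 s every 20 min. The pulses held isoamyl acetate, an ester with a banana smell (odor), or filtered air alone (vehicle). Dissociated cells of 3 mice were pooled and sorted by fluorescence, and each of 8 pools yielded both a titled GFP+ and a titled GFP- library. The 16 arrays form 4 groups of 4: odor titled GFP+, odor titled GFP-, vehicle titled GFP+ and vehicle titled GFP-. Replicates are separate pools of 3 mice, with sorting gates not given in the sources used here. All values are deposited log2 signals, on which a difference of 1 is a factor of 2. Levels of different genes are not set against each other, because each probe set has its own brightness.

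The sort was first checked with S100a5 itself, and it went against the titles. S100a5 averaged 15.49 ± 0.31 in odor libraries titled GFP+ and 16.75 ± 0.18 in odor libraries titled GFP- (SD, n = 4 each). The vehicle means were 15.21 ± 0.47 when titled GFP+ and 16.39 ± 0.20 when titled GFP-. The differences of -1.25 and -1.18 (SE 0.21 each) passed limma's test (adjusted p = 0.000222 with odor and 0.000442 with vehicle), and S100a5 was lower in the library titled GFP+ in 8 of 8 pools. The labels themselves are split, since the field for the cell type names the sign of GFP opposite to the title for each of the 16 libraries. All sort differences below are titled GFP+ minus titled GFP- and would turn round if that field is right. Mature olfactory neuron markers, a list of 13 genes that includes Omp, were bright in both sorts, with list means of 15.70 to 16.10 when titled GFP+ and 16.13 to 16.27 when titled GFP-.

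Immediate-early genes are transcribed within minutes of a stimulus without need for new protein. Calcium entry, growth factors and cytokines reach them through serum response factor with its ternary complex partners, which bind CArG boxes, and through CREB, which binds the cyclic AMP response element. Fos, Fosb and Junb encode subunits of the AP-1 factor, Egr1, Egr2 and Egr3 encode zinc finger factors, and Nr4a1 and Nr4a3 encode orphan nuclear receptors. In neurons they report recent firing, and in leukocytes and epithelial cells they report activation. Tissue dissociation induces them too, and all cells here were dissociated before sorting. The part of dissociation in the levels below was not tested.

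The promoters of Fos, Junb and Btg2 are shown as examples of the 6 genes with a single listed start. Each sequence is the 250 bases before the annotated start (RefSeq, GRCm38.p6), 5′ to 3′ on the gene's strand, and capitals mark the core of the cyclic AMP response element, TGACG, on either strand.
Fos (chr12:85473640-85473889, + strand): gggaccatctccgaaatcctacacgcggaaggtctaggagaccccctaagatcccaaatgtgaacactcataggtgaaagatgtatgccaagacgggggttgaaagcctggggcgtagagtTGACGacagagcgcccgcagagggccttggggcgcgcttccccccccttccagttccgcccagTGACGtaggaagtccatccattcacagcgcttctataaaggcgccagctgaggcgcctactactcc
Junb (chr8:84978749-84978998, - strand): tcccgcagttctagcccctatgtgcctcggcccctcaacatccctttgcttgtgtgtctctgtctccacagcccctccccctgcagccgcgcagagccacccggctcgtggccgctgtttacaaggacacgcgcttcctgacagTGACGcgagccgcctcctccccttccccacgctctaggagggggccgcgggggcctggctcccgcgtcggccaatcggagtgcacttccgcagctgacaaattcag
Btg2 (chr1:134079156-134079405, - strand): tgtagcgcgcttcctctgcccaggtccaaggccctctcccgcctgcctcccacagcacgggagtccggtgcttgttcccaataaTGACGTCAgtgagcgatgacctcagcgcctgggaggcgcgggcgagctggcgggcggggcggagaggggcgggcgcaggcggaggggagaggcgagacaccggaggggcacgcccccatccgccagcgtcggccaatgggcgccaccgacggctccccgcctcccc

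Promoter entries were used for 7 of the 10 genes (Fos, Fosb, Junb, Egr2, Nr4a1, Nr4a3 and Btg2), and all 7 held TGACG on at least 1 strand, against 17.8% of 32851 mouse promoters of the same length. For Egr2 the start with most matches among 5 listed ones was taken, and 3 of the 5 hold TGACG. In Fos the motif began 129 and 66 bases before the start, and in Btg2 the matches on both strands overlapped, at 166 and 163 bases. Nr4a1 held 4 matches (233, 213, 69 and 40 bases before the start) and so did Nr4a3 (231, 213, 205 and 147 bases), while 0.137% of all promoters hold 4 or more. A CArG box was found in Egr2 alone, 72 bases before its start, against 1.47% of all promoters. The EGR site GCGNGGGCG was present in Fosb, Nr4a1 and Btg2, against 4.70% of all promoters. The AP-1 site TGANTCA was in 0 of the 7 windows, against 6.75%, and TATAAA was in Fos alone, against 12.4%. These matches describe letters in the windows and are not evidence of binding.

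In both treatments, 8 of the 10 genes were higher in libraries titled GFP+ than in libraries titled GFP- of the same pools, and 0 were lower. Of all 22206 probe sets tested, 11.0% were called higher and 9.86% lower with odor, and 10.2% higher and 7.16% lower with vehicle. The 8 genes were Fos, Fosb, Junb, Egr1, Egr2, Nr4a1, Nr4a3 and Btg2, and for each of them the 4 libraries of one sort did not overlap the 4 of the other. Of all probe sets, 10.5% with odor and 11.3% with vehicle had such non-overlapping higher values. The median difference over the 10 genes was 4.91 with odor and 4.07 with vehicle, beside medians over all probe sets of -0.14 and -0.13. In libraries titled GFP-, Fosb, Junb, Egr1, Egr2 and Btg2 never lay above the 95th percentile of their array's negative controls, 9.40 to 10.09. Their folds below therefore rest on a low side within the spread of the negative controls. In sorted bulk libraries, more cells of a type and more RNA per cell cannot be told apart.

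**Figure D1:**
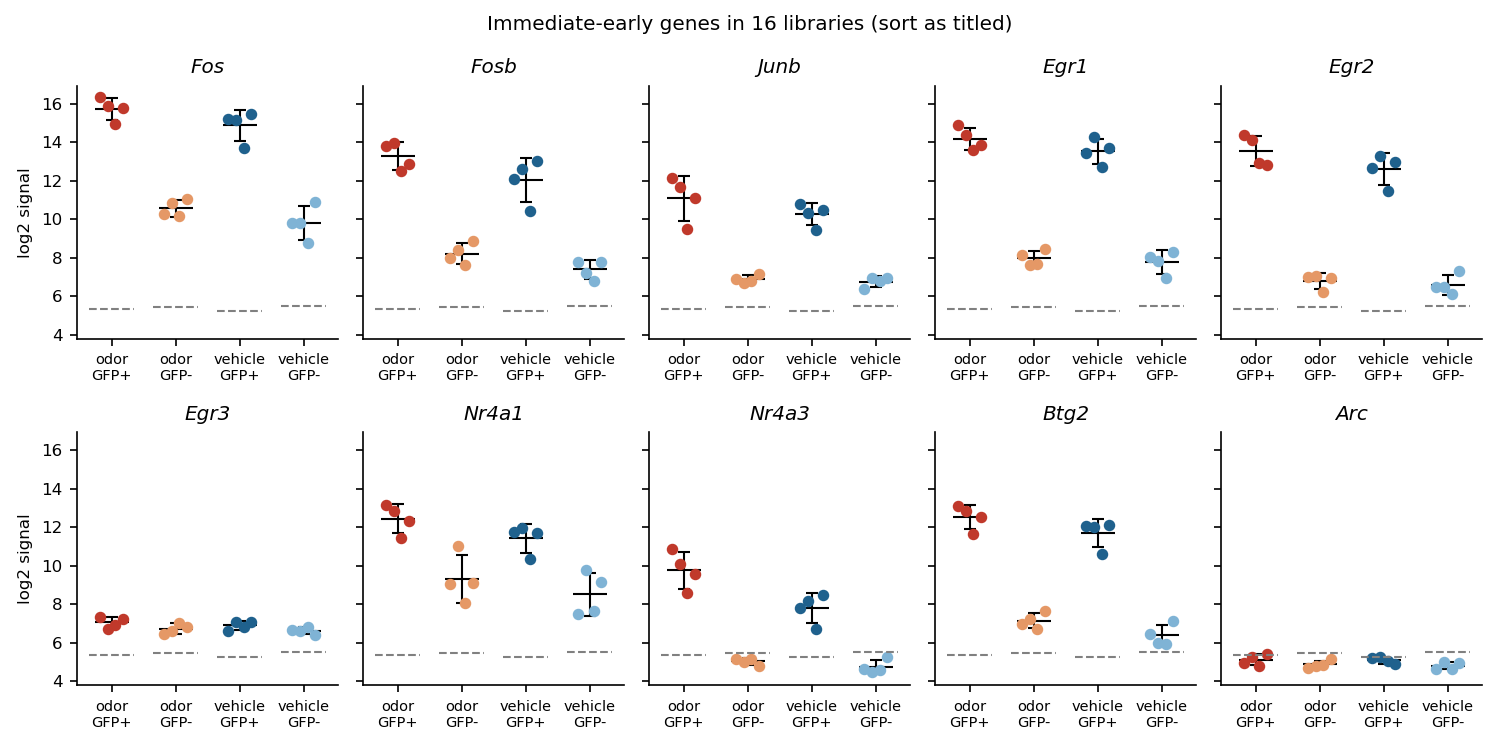
Log2 signal of each of the 10 genes (vertical axis) in the 4 groups (horizontal axis), with 1 point per library, the group mean as a bar and the SD as an error bar (n = 4). The dashed line is the mean over a group's arrays of their median negative control. Within each treatment, the libraries titled GFP+ of 8 genes lie above those titled GFP-, while Egr3 and Arc overlap.

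Among the AP-1 subunits, Fos read 16.33, 15.91, 14.95 and 15.79 in the odor libraries titled GFP+ (replicates 1 to 4), against 10.25, 10.82, 10.16 and 11.07 in those titled GFP-. In vehicle it read 15.21, 15.18, 13.70 and 15.45 in libraries titled GFP+, against 9.83, 9.82, 8.75 and 10.91 in those titled GFP-. The lowest library titled GFP+, vehicle replicate 3, still lay well above the highest library titled GFP-. The difference was 5.17 with odor (SE 0.43, limma adjusted p = 9.29e-08, 36-fold) and 5.06 with vehicle (SE 0.43, adjusted p = 1.29e-07, 33.3-fold).

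Fosb, the Fos relative whose truncated form accumulates in chronically stimulated neurons, spanned 12.52 to 13.99 in odor libraries titled GFP+ and 7.61 to 8.88 in odor libraries titled GFP-. In vehicle it spanned 10.44 to 13.05 when titled GFP+ and 6.79 to 7.80 when titled GFP-. Its difference was 5.07 with odor (SE 0.47, adjusted p = 3.29e-07) and 4.65 with vehicle (SE 0.47, adjusted p = 9.95e-07). Junb, a partner of Fos proteins in AP-1, read 12.13, 11.66, 9.47 and 11.10 in odor libraries titled GFP+, against 6.88, 6.69, 6.78 and 7.18 in those titled GFP-. Replicate 3 stood lowest among the libraries titled GFP+, and the spread among libraries titled GFP- was small. Junb was higher by 4.21 with odor (SE 0.41, adjusted p = 6.7e-07) and by 3.50 with vehicle (SE 0.41, adjusted p = 6.41e-06).

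The widest gaps between sorts were those of Egr2 and Egr1. Egr2 read 14.37, 14.11, 12.94 and 12.84 in odor libraries titled GFP+, against 6.98, 7.07, 6.20 and 6.94 in those titled GFP-. In vehicle it read 12.68, 13.31, 11.46 and 13.00 in libraries titled GFP+, against 6.46, 6.47, 6.13 and 7.32 in those titled GFP-. Egr2 is also known as the regulator of myelination in Schwann cells. The lowest library titled GFP+ was vehicle replicate 3, and it lay far above the highest library titled GFP-. The difference was 6.77 with odor (SE 0.40, limma adjusted p = 1.58e-09, 109-fold) and 6.02 with vehicle (SE 0.40, adjusted p = 7.12e-09, 64.8-fold), and the pool differences ran from 5.90 to 7.39 and from 5.33 to 6.84.

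Egr1, a zinc finger factor induced in most cell types by serum or depolarization, spanned 13.61 to 14.89 in odor libraries titled GFP+ and 7.62 to 8.46 in odor libraries titled GFP-. Its vehicle libraries spanned 12.72 to 14.29 when titled GFP+ and 6.93 to 8.31 when titled GFP-. The difference was 6.23 with odor (SE 0.35, adjusted p = 7.77e-10, 74.8-fold) and 5.76 with vehicle (SE 0.35, adjusted p = 2.1e-09, 54.2-fold).

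Egr3, a factor of muscle spindle development and of T cell tolerance, gave a mixed reading over its 3 probe sets. The one with the highest mean (TSUnmapped00000048.mm.2) read 7.36, 6.73, 6.91 and 7.25 in odor libraries titled GFP+ and 6.43, 6.62, 7.05 and 6.84 in those titled GFP-. The groups overlapped, and the difference was 0.33 with odor (SE 0.17, adjusted p = 0.192) and 0.28 with vehicle (SE 0.17, adjusted p = 0.292). A second probe set (TSUnmapped00000046.mm.2) read 7.80, 7.91, 7.12 and 6.91 in odor libraries titled GFP+, against 5.82, 6.24, 6.18 and 6.07 in those titled GFP-, without overlap. That difference of 1.36 (SE 0.26, adjusted p = 0.00088) was called with odor, and the one of 0.58 with vehicle was not (SE 0.26, adjusted p = 0.141). The remaining Egr3 probe set was never above the median negative control of its array. It passed with odor as well (1.61, SE 0.24, adjusted p = 6.02e-05) but not with vehicle (0.65, SE 0.24, adjusted p = 0.0681), and no fold is given for it. Whether the odor and vehicle differences of these probe sets differ is covered by the interaction below, which called neither.

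The nuclear receptor gene Nr4a1 was the most variable of the 8 in libraries titled GFP-. It read 13.16, 12.87, 11.44 and 12.34 in odor libraries titled GFP+, against 9.04, 11.02, 8.07 and 9.10 in those titled GFP-. In vehicle it read 11.73, 11.96, 10.33 and 11.69 in libraries titled GFP+, against 7.47, 9.78, 7.67 and 9.16 in those titled GFP-. Replicate 2 was the highest library titled GFP- in both treatments. The difference was 3.14 with odor (SE 0.60, limma adjusted p = 0.00096, 8.83-fold) and 2.90 with vehicle (SE 0.60, adjusted p = 0.00211, 7.49-fold).

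Nr4a3, its close relative, read 10.86, 10.09, 8.56 and 9.58 in odor libraries titled GFP+, against 5.18, 4.98, 5.17 and 4.77 in those titled GFP-. The vehicle values were 7.81, 8.19, 6.70 and 8.49 in libraries titled GFP+, against 4.65, 4.48, 4.59 and 5.24 in those titled GFP-. No library titled GFP- lay above the median negative control of its array, so the sort difference is a lower bound. Nr4a3 was at least 20-fold higher with odor (fitted difference 4.74, SE 0.40, adjusted p = 1.22e-07) and at least 4.89-fold higher with vehicle (fitted difference 3.05, SE 0.40, adjusted p = 2.21e-05). For these bounds each value in libraries titled GFP- was raised to the median negative control where it lay below it.

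Btg2, which restrains the cell cycle and promotes decay of mRNA, read 13.12, 12.87, 11.65 and 12.51 in odor libraries titled GFP+, against 6.99, 7.25, 6.70 and 7.64 in those titled GFP-. In vehicle it read 12.08, 12.00, 10.60 and 12.12 in libraries titled GFP+, against 6.48, 6.00, 5.95 and 7.11 in those titled GFP-. Replicate 3 was again lowest in each group. Btg2 was higher by 5.39 with odor (SE 0.37, adjusted p = 7.65e-09, 42.1-fold) and by 5.32 with vehicle (SE 0.37, adjusted p = 1.01e-08, 39.9-fold).

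Arc gave no measurable level. It spanned 4.81 to 5.42 in odor libraries titled GFP+ and 4.71 to 5.16 in odor libraries titled GFP-. It was above the median negative control in 1 of 4 libraries of each titled GFP+ group and in 0 of the libraries titled GFP-. The differences of 0.24 with odor and 0.28 with vehicle did not pass (adjusted p = 0.31 and 0.237). Centring each array on its median turned the sort differences of Arc and of the main Egr3 probe set negative in both treatments. It moved the median of all probe sets to -0.50 and the share of higher calls among all calls to 12.1% with odor and 11.3% with vehicle, against 52.8% and 58.7% as deposited. The same 8 genes were called higher under every scaling tried.

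**Figure D2:**
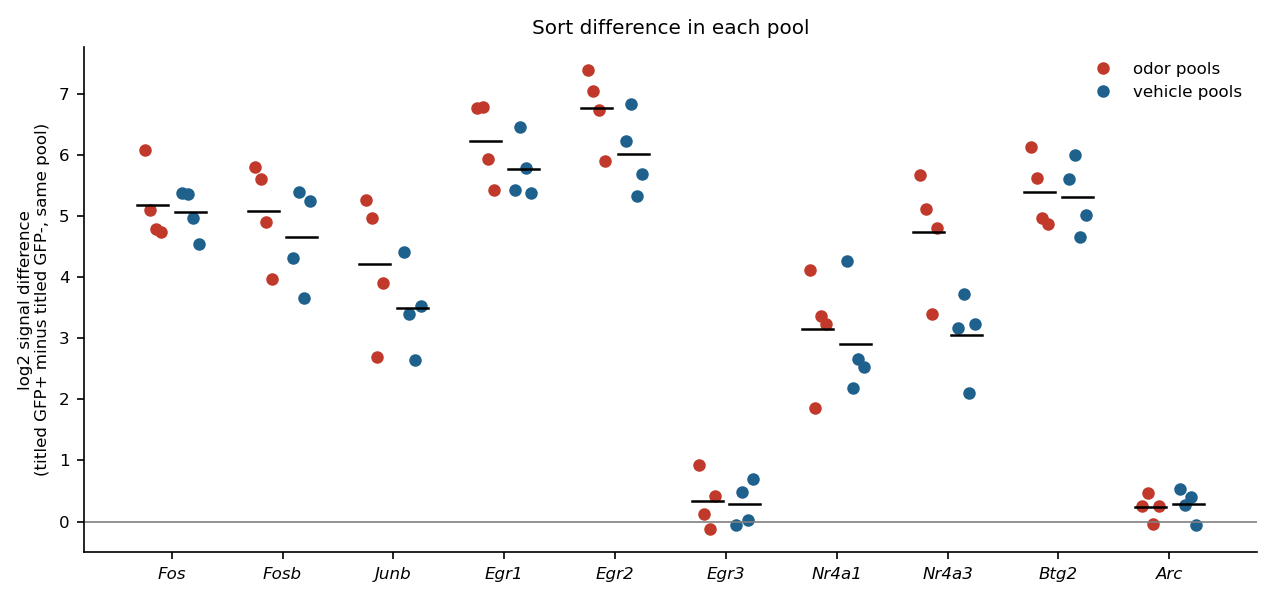
Log2 signal difference, titled GFP+ minus titled GFP- library of the same pool (vertical axis), for each gene (horizontal axis), with 4 odor pools and 4 vehicle pools as points and their means as bars. All pools lie above 0 for the 8 called genes, from 1.85 for Nr4a1 up to 7.39 for Egr2, and around 0 for Egr3 and Arc.

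Other stimulus-response genes behaved in part like these 8. Of 8 further members of the AP-1, EGR and NR4A families, 4 were called higher in odor libraries titled GFP+ and 0 lower (median 0.69), and with vehicle 3 were higher and 0 lower (median 0.44). Nr4a2, the nuclear receptor of midbrain dopamine neurons, was higher by 3.84 with odor (SE 0.44) and by 3.48 with vehicle (SE 0.44). Fosl2 was higher by 2.45 and by 1.61 (SE 0.29 each), and the stress-induced factor Atf3 by 1.89 and by 1.67 (SE 0.26 each). The largest adjusted p of these 6 differences was 0.000632 for Fosl2 with vehicle, and Fosl1 passed with odor alone, at 0.67 (SE 0.22, adjusted p = 0.0388).

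Among 29 measured primary response genes outside those families, 24 were called higher and 0 lower with odor (median 1.75), and 22 higher and 0 lower with vehicle (median 1.49). Zfp36, which destabilizes cytokine mRNAs, averaged 13.36 in odor libraries titled GFP+, against 7.62 in those titled GFP- (difference 5.73, SE 0.55, adjusted p = 5.44e-07). Its vehicle difference was 5.81 (SE 0.55, adjusted p = 4.88e-07). For Rgs2, a G protein regulator, Plk2, a kinase, and Ptgs2, the inducible cyclooxygenase, the libraries titled GFP- were not above the median negative control. Their odor differences were at least 4.99, 4.47 and 4.13 on the log2 scale. With vehicle the bounds were 4.42 for Rgs2, 4.05 for Plk2 and 3.48 for Myc, the growth regulator.

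Genes linked to neuronal firing, other than the 10, did not show this shift as a list, but part of it was undetected. Signals of 4 of these genes, Npas4, Bdnf, Pcsk1 and Vgf, stayed at background in every group. Those 4 therefore say little about a shift, and the list medians rest in part on them. Of 9 measured ones, 1 was called higher and 1 lower with odor (median -0.19), and 1 higher and 0 lower with vehicle (median -0.31). The higher one was Inhba, an activin subunit, at least 0.44 higher with odor (adjusted p = 0.00148) and at least 0.15 with vehicle (adjusted p = 0.00459), since its libraries titled GFP- lay at background. The lower one was Pcsk1, a prohormone convertase, at -0.87 (SE 0.22, adjusted p = 0.008), whose means of 4.22 and 5.09 both lay below the negative controls. Of 15 measured upstream regulators and co-repressors 1 was higher with odor and 2 with vehicle, and 0 were lower. These were Mef2c, a muscle, neuron and lymphoid factor, at 2.24 with odor and at least 2.58 with vehicle (adjusted p = 2.36e-05 and 1.14e-06), and Mrtfa, an actin-sensing partner of serum response factor, at 0.94 with vehicle (SE 0.23, adjusted p = 0.00768). Of 8 measured heat shock genes 1 was higher in each treatment and 0 lower, Hspb1, whose group means of 5.05 against 4.04 with odor and 4.60 against 3.78 with vehicle lay below the median negative controls. The replicate block called 4 heat shock genes higher in each treatment and 4 upstream regulators higher with odor. With median centring, 5 of the 9 neuronal activity genes were lower with odor and 6 with vehicle, as were 3 and 7 of the 15 upstream regulators. That centring called 61.6% of all probe sets lower with odor and 62.5% with vehicle, so these counts do not set the lists apart. With neuron-marker centring 5 upstream regulators were higher with odor.

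A list of 8 genes that follow odor activity in olfactory neurons, drawn up with these results known, ran the other way between sorts. It includes S100a5, the gene that the sorted reporter follows and that was used above to check the sort. Its counts are therefore not independent of that check. Of 8, 0 were higher and 6 lower in odor libraries titled GFP+ (median -1.18), and 0 higher and 5 lower with vehicle (median -1.13). Pcp4l1 differed by -1.90 with odor and -1.62 with vehicle (SE 0.30 each, adjusted p = 0.000117 and 0.00064). Pcdh10, a protocadherin of olfactory axons, differed by -1.62 and -1.20 (SE 0.37 each, adjusted p = 0.00444 and 0.0344).

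Markers of several other cell types were higher in the same libraries as the immediate-early genes. All 12 neutrophil markers were called higher in both treatments, with medians of 8.74 with odor and 8.27 with vehicle. Their list mean was 13.34 to 15.20 in odor libraries titled GFP+ and 5.57 to 6.66 in odor libraries titled GFP-, and with vehicle 13.68 to 14.27 when titled GFP+ and 5.59 to 6.39 when titled GFP-. In libraries titled GFP-, Camp and Mmp9, proteins of neutrophil granules, were never above the median negative control. Of 11 macrophage markers 8 were higher with odor and 10 with vehicle, and their list mean was 8.16 to 9.45 in odor libraries titled GFP+ and 5.40 to 6.29 in those titled GFP-.

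Of 8 lymphocyte markers, 6 were called higher with odor and 7 with vehicle, and none was above the median negative control in any library titled GFP-. All 8 microvillar cell markers and all 7 sustentacular cell markers were higher in both treatments, with odor medians of 3.17 for microvillar and 2.61 for sustentacular markers. Immature olfactory neuron markers were higher in 6 of 7 and progenitor and cell cycle markers in 6 of 6. The odor medians were 3.45 for immature neurons and 3.18 for progenitors. Among the progenitor markers, Neurog1 and Cdk1 stayed at background in every group, so their calls are differences within background. Kit and Ube2c rose above background only when titled GFP+. The progenitor median therefore rests in part on background values. Endothelial markers passed in 2 of 6 with odor and 0 of 6 with vehicle, fibroblast markers in 1 of 5 in both, and horizontal basal cell markers in 1 of 4 and 0 of 4. Mature olfactory neuron markers were lower in 2 of 13 in both treatments, with medians of -0.21 with odor and -0.17 with vehicle. With median centring 12 of 13 were lower in both, but so were 61.6% of all probe sets with odor and 62.5% with vehicle. The part of these cell types in the difference of the immediate-early genes was not tested.

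**Figure D3:**
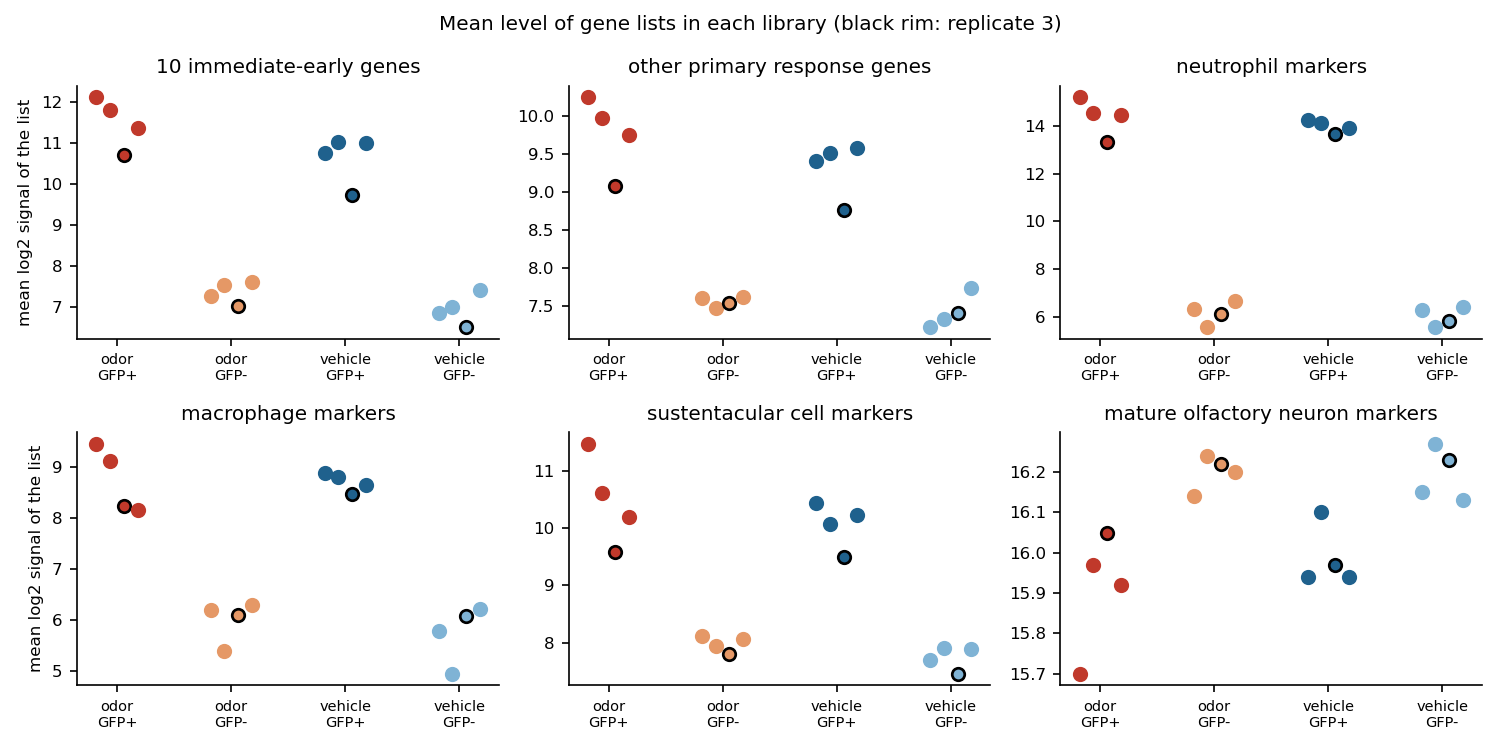
Mean log2 signal of 6 gene lists (vertical axes, 1 panel per list, each with its own range) in every library, by group (horizontal axes), with replicate 3 rimmed in black. The 10 immediate-early genes, other primary response genes, neutrophil, macrophage and sustentacular markers are higher in libraries titled GFP+, and mature olfactory neuron markers are slightly lower there.

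Odor against vehicle called 0 of the 10 genes in libraries titled GFP+, where 0.00901% of all 22206 probe sets (2 probe sets) were called higher and 0 lower. At an unadjusted p under 0.05, 4 of the 10 passed, as did 1072 probe sets in all. All 10 fitted differences were positive, with a median of 0.85 beside -0.01 over all probe sets, and 6 of the 10 were higher with odor in 4 of 4 same-numbered comparisons, as were 6.34% of all probe sets. Leaving out 1 pool in turn gave medians of 0.52 (without vehicle replicate 3) to 1.14 (without odor replicate 3) and 1 to 8 genes at an unadjusted p under 0.05. For the representative probe set of each of the 10 genes, group means fell from odor titled GFP+ through vehicle titled GFP+ and odor titled GFP- to vehicle titled GFP-. Each Egr3 probe set not used to represent the gene was instead lower with odor in libraries titled GFP- (6.08 against 6.16, and 3.05 against 3.27). The 10 genes share libraries, so they are not separate replicates of an odor difference. Within a sort the odor and vehicle groups overlapped, except for Nr4a3 in libraries titled GFP+.

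Other lists were also positive between odor and vehicle in libraries titled GFP+, with 0 genes called. These were 27 of 29 other primary response genes (median 0.43), 12 of 12 neutrophil markers (0.38), 7 of 7 sustentacular markers (0.39) and 7 of 8 microvillar markers (0.30). Macrophage markers were positive in 6 of 11 (0.03), immature olfactory neuron markers in 1 of 7 (-0.34) and mature ones in 3 of 13 (-0.09). The part of these cell types in the odor difference of the immediate-early genes was not tested.

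Nr4a3 showed the largest of these differences. Its 4 odor libraries titled GFP+, at 8.56 to 10.86, all lay above the 4 vehicle libraries, at 6.70 to 8.49, and 1.27% of all probe sets were as cleanly separated and higher. The same-numbered differences were 3.05, 1.89, 1.86 and 1.10. Nr4a3 lay above the 95th percentile of its array's negative controls in 2 of the 4 odor and 0 of the 4 vehicle libraries titled GFP+. The fold given next therefore rests on vehicle values within the spread of the negative controls. The fitted difference was 1.98 (SE 0.40, 3.93-fold), and its unadjusted p ranked 7 among all probe sets, but limma's adjusted p was 0.416. Over 16 alternatives it ran from 1.61 to 2.38, with adjusted p between 0.0507 and 1, and it was called in 0 of them. With the replicate number as a block the adjusted p was 0.052.

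The other genes differed less between odor and vehicle. Fosb was higher by 1.24 (SE 0.47), Nr4a1 by 1.02 (SE 0.60), Egr2 by 0.95 (SE 0.40) and Fos by 0.86 (SE 0.43). The values were 0.84 for Btg2 (SE 0.37) and for Junb (SE 0.41), 0.65 for Egr1 (SE 0.35), 0.16 for Egr3 and 0.03 for Arc. All of these had an adjusted p of 0.968 or above. For Fos the same-numbered differences were 1.12, 0.73, 1.24 and 0.35, while Fosb and Egr2 were lower with odor in replicate 4, at -0.20 and -0.16.

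In libraries titled GFP-, odor against vehicle again called 0 of the 10, beside 0.0180% of all probe sets called higher (4 probe sets) and 0 lower. At an unadjusted p under 0.05, 0 of the 10 and 733 probe sets passed. The differences were 0.82 for Fosb, 0.79 for Nr4a1, 0.76 for Btg2 and 0.75 for Fos, and between 0.08 and 0.29 for the remaining 6. Fosb, Fos and Btg2 were higher with odor in 4 of 4 same-numbered comparisons, a pattern that 6.37% of all probe sets showed.

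**Figure D4:**
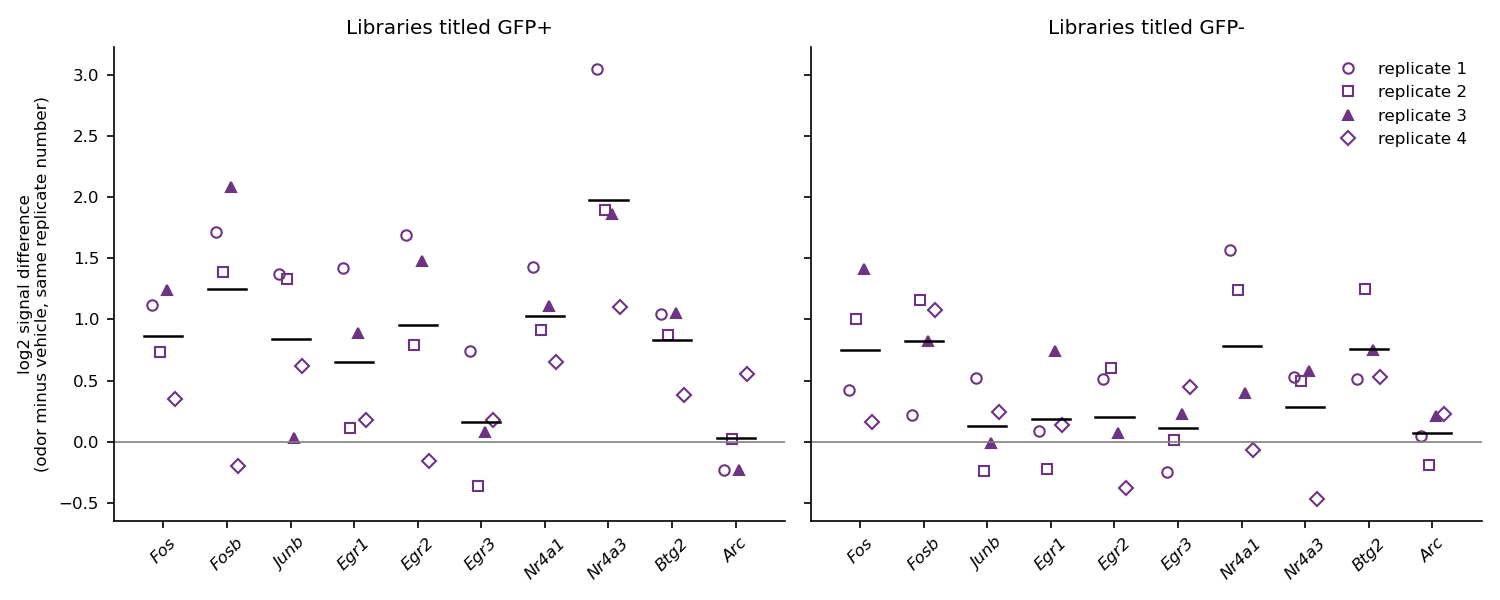
Log2 signal difference, odor minus vehicle library of the same replicate number (vertical axis), for each gene (horizontal axis), in libraries titled GFP+ (left) and titled GFP- (right), with 1 symbol per replicate number and the mean as a bar. In libraries titled GFP+ Nr4a3 lies between 1.10 and 3.05, and the other genes lie between -0.36 and 2.08.

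Whether odor changed the sort difference was tested as an interaction, and 0 of the 10 genes passed. Of all probe sets 0 were called higher and 1 lower (0.00450%). At an unadjusted p under 0.05, 1 of the 10 and 653 probe sets passed. That gene was Nr4a3, with an interaction of 1.69 (SE 0.57, limma adjusted p = 1.00), which rests in part on libraries titled GFP- at background. Of the Egr3 probe sets not used to represent the gene, TSUnmapped00000046.mm.2 had an interaction of 0.78 (SE 0.37) and the one at background 0.96 (SE 0.33). Both were under an unadjusted p of 0.05 and had limma adjusted p = 1.00.

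Odor against vehicle did call 3 genes of the list of activity-dependent olfactory neuron genes, a list drawn up with these results known. Pcdh10 was higher by 2.56 (SE 0.37, adjusted p = 0.0384) when titled GFP+ and by 2.98 (SE 0.37, adjusted p = 0.00332) when titled GFP-. Camk2n1, an inhibitor of the kinase CaMKII, was higher by 1.17 (SE 0.17, adjusted p = 0.0384) and by 1.64 (SE 0.17, adjusted p = 0.000798). The semaphorin Sema7a was higher by 0.93 in libraries titled GFP- (SE 0.14, adjusted p = 0.0342).

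The 8 called genes varied together among replicates. Across the 16 within-group deviations, the 28 pairs among them had Pearson r between 0.45 and 0.93 (median 0.76), and across the 8 libraries titled GFP+ between 0.72 and 0.99 (median 0.91). These genes share libraries, so the values describe the libraries and carry no test. In libraries titled GFP+, replicate 3 was below its group mean for 8 of 8 genes in both treatments, by 0.94 on average with odor and 1.11 with vehicle.

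Some marker lists were also lowest in replicate 3, and others were not. The neutrophil list mean in libraries titled GFP+ was 13.34 in odor replicate 3, against 14.47 to 15.20 in the other odor replicates, and 13.68 in vehicle replicate 3, against 13.94 to 14.27. The sustentacular list mean was 9.59, against 10.19 to 11.47 with odor, and 9.49, against 10.07 to 10.44 with vehicle. Microvillar markers were lowest in replicate 3 in both treatments too, and macrophage markers with vehicle only. Lymphocyte and immature olfactory neuron markers were lowest there in neither, and mature olfactory neuron markers were highest there with odor (16.05). Without the pools numbered 3, a choice made after seeing the data, 8 genes were called higher in both sort comparisons.

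Likeness to the mean of the 10 was looked at among 12625 other genes above the median negative control in at least 4 arrays. Genes with provisional names (Gm, LOC and Rik) were left out. Over all 16 arrays the most alike were Ccrl2 (Pearson r = 0.991), Plaur (0.991), Mrgpra2a (0.990), Mgst1 (0.989) and Serpinb1a (0.988). Their sort differences were 4.86, 6.60, 6.22, 4.89 and 5.74 with odor. These r values mostly restate the gap between sorts, which is wide beside the spread within groups. Over the 16 deviations from the group means, the most alike were Nsd2 (0.918), Tnfaip3 (0.916), Mgat2 (0.901), Aqp4 (0.891) and Cyp1a2 (0.885). Tnfaip3, an inhibitor of NF-kappaB signalling, had sort differences of 3.72 with odor and 3.01 with vehicle, while those of Nsd2 were 0.12 and 0.28.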

How the data were processed

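RNA of 16 sorted cell samples (8 pools of 3 mice, each giving both sorts) was measured on Clariom S mouse arrays from 50 to 100 ng of total RNA, according to the labels. The deposited values are log2 signals, which, per the submitters' processing notes, came out of Affymetrix Expression Console, with a background correction and normalization not given in the sources used here. Array medians were 6.79 to 6.90 when titled GFP+ and 6.42 to 6.52 when titled GFP-, and the median of the negative controls was 5.15 to 5.56 and 5.30 to 5.67. Of 28846 probe sets 6640 controls were left out. Of the 22206 probe sets tested, the platform annotation names a single gene for 19572 and no gene for 2634. Of the 19505 genes, all of the 10 are measured.

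Groups follow the sample titles. limma 3.58.1 (R 4.3.3) was fitted to the 4 group means of all 16 arrays, with eBayes without trend (12 residual and 4.49 prior degrees of freedom). Adjusted p-values are Benjamini-Hochberg over 22206 probe sets, with a threshold of 0.05. The number of arrays limits the precision. Replicate numbers pair the samples: both sorts of a pool come from the same mice, and their deviations correlated at 0.16 to 0.40 in 8 of 8 pools. Same-numbered odor and vehicle libraries, which come from different mice, correlated at 0.17 to 0.28 when titled GFP+ and at 0.07 to 0.41 when titled GFP-. All same-numbered values exceeded a limit of 0.1 in the first case and not in the second. Differently numbered libraries reached 0.19 in both sorts, so the ranges overlapped and pairing of treatments by number is weak at best.

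The genes and lists were chosen with earlier results of these data known, so no list p-value is given. The text names all 10 genes, S100a5, up to 4 called genes per list with the largest sort differences (examples of them here), list genes called for odor, and the 5 genes most alike by each likeness. Alternatives were median, quantile and neuron-marker scaling, the replicate block, a filter on dim probe sets, the groups compared alone, a variance trend with robust prior, and each pool left out.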

Additional observations from a re-analysis of the deposited data

Results flagged for a closer look

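Within groups of 4 libraries, 4 values stood far from the other 3 by Dixon's test, all of them low values of replicate 3. Of the libraries titled GFP+ with vehicle, replicate 3 read 13.70 for Fos (next 15.18), 10.33 for Nr4a1 (next 11.69) and 10.60 for Btg2 (next 12.00). Of the libraries titled GFP- with odor, replicate 3 read 6.20 for Egr2 (next 6.94). These are 4 of 52 groups looked at, and chance flags about 1 in 20.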

How the results depend on the processing

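The 8 called genes kept direction and call in both sort comparisons under every alternative run, and none of the 10 passed for odor or for the interaction under any. With neuron-marker centring Egr3 and Arc also passed between sorts in odor (0.62, adjusted p = 0.0274, and 0.53, adjusted p = 0.0291). Of 913 values of single genes 907 stayed on their side of the threshold and 6 came to pass it, all of Egr3 or Arc.

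Counts over all probe sets depended more on the settings. The sort differences called 4638 probe sets with odor and 3851 with vehicle as deposited, and 15554 and 15630 with median centring. The share of higher calls was 41.4% with odor and 42.1% with vehicle after quantile normalization and 86.0% and 82.4% with neuron-marker centring. Leaving out 1 pool gave 3037 to 3967 with odor, lowest without odor replicate 1, and 2722 to 3102 with vehicle. Odor against vehicle in libraries titled GFP+ called 2 as deposited, 0 with median centring, with only the groups compared or with the variance trend and robust prior, 4 with the replicate block, and 0 to 3 when 1 pool was left out. The interaction called 1, and 0 with the replicate block.

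With the replicate block, the number of the 10 genes at an unadjusted p under 0.05 for odor against vehicle was 8 in libraries titled GFP+, against 4 without it. In those titled GFP- it was 4 against 0. Pairing of treatments by number was weak in libraries titled GFP+ and not established in those titled GFP-. The block changed no call among the 10. Levels at or below the median negative control limit Arc, 1 Egr3 probe set and Nr4a3 in libraries titled GFP-. Fosb, Junb, Egr1, Egr2 and Btg2 lay above that median in libraries titled GFP-, but never above the 95th percentile of the negative controls, which limits their folds. In vehicle libraries titled GFP+, Nr4a3 never lay above that percentile either, which limits its fold between odor and vehicle.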
